A study of Homo sapiens with 10 samples.

Results

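This account concerns what a control shRNA culture of the lung adenocarcinoma line PC9M expressed beside a vehicle culture of the same line. The scrambled library came from PC9M cells transduced with a scrambled shRNA in the presence of 8 µg/mL polybrene, a polymer that helps viral particles attach to cells. The DMSO library came from PC9M cells kept with the solvent DMSO for 72 h. These were 2 of the 10 libraries of a study on the ABL kinases, ABL1 and ABL2, in human lung cancer lines. The other PC9M libraries came from cells transduced with shRNAs against ABL1 and ABL2 and from cells given the allosteric ABL inhibitor GNF5 for 72 h, at a dose the labels write as 20 mM. The line PC9 had the same 4 kinds of culture, with GNF5 at 10 mM. The labels mark PC9M as the more metastatic of these related lines, to bone and brain. For the transduced cultures they give neither the time after transduction, nor a selection step, nor the vector. All cultures grew in RPMI 1640 with serum.

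Every group held 1 library, so no value below has an error, no test was possible and each difference is a difference between 2 libraries. The scrambled and DMSO libraries also stand in separate tables, each scaled on its own by the authors. Transduction with polybrene, the scrambled shRNA, the DMSO, the time in culture and the table therefore cannot be told apart. In these bulk samples, fewer cells that express a gene and less of its RNA per cell cannot be told apart either.

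The comparison covered 8691 of 23236 genes, those listed with at least 5 FPKM (fragments per kilobase of transcript, scaled to the mapped fragments of the library) in either library after short RNAs and date-like symbols were left out. The ratio used throughout is the log2 of scrambled over DMSO after adding 1 FPKM to each, less the median ratio of these genes, which was -0.01. The number of reads is unknown. A rough estimate put the depth of the scrambled library at 1.02 times that of the DMSO library. It took the most common ratio among 2753 genes under 0.15 FPKM, a range of ratios that held 123 of them. Genes with like levels also gather near equal values, so like depth is not established. Just inside the minimum lay ULK3, at 4.95 FPKM in the scrambled and 5.002 FPKM in the DMSO library, and just outside it lay NEU3, at 4.99 FPKM in the scrambled and 3.79 FPKM in the DMSO library.

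Epithelial markers were alike in the libraries. The epithelial genes EPCAM (218 FPKM scrambled, 202 FPKM DMSO), KRT8 (3393 FPKM scrambled, 3298 FPKM DMSO) and KRT18 (2825 FPKM scrambled, 2920 FPKM DMSO) were high in both. The lung lineage factor NKX2-1 was listed at 0 FPKM in the scrambled and at 0.0102 FPKM in the DMSO library, and the surfactant gene SFTPC at 0 FPKM in both, so these defining markers of the distal lung were at or near 0. Fibroblast markers summed to 2.36 FPKM in the scrambled and 3.03 FPKM in the DMSO library, immune cell markers to 3.04 FPKM scrambled and 2.09 FPKM DMSO, and endothelial markers to 3.09 FPKM scrambled and 3.80 FPKM DMSO. The kinase ABL1 stood at 10.5 FPKM in the scrambled and 9.99 FPKM in the DMSO library, a ratio of 0.07, and ABL2 at 5.22 FPKM scrambled and 3.63 FPKM DMSO, a ratio of 0.43. In the ABL1/ABL2 shRNA library ABL1 stood at 3.56 FPKM and ABL2 at 3.03 FPKM.

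Most genes had like levels in both libraries. Of the 8691 genes 92.9% lay within 1.5-fold of each other, and Spearman's rho of the levels was 0.96 across genes, which are not independent replicates. In all, 147 genes (1.69%) were 2-fold or further apart. At least 2-fold higher in the scrambled library were 85 genes, 0.978% of those compared, and at least 2-fold lower were 62 genes, 0.713%. With ratios centred on the sums of FPKM instead of the median, the split was 109 higher and 45 lower. Of the 85 higher genes 51 reached 5 FPKM in the scrambled library alone, so they had to be on the higher side, and 22 of the 62 lower genes reached it in the DMSO library alone. Among the 8006 genes with 5 FPKM in both libraries, the scrambled value was 2-fold or more above the DMSO value for 34 (0.425%) and as far below it for 40 (0.5%). Interferon response genes and stress keratins were among the higher genes, and aldo-keto reductases and immediate early genes among the lower ones. Of the higher genes 39, and of the lower genes 48, belonged to none of the gene lists described here.

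**Figure D1:**
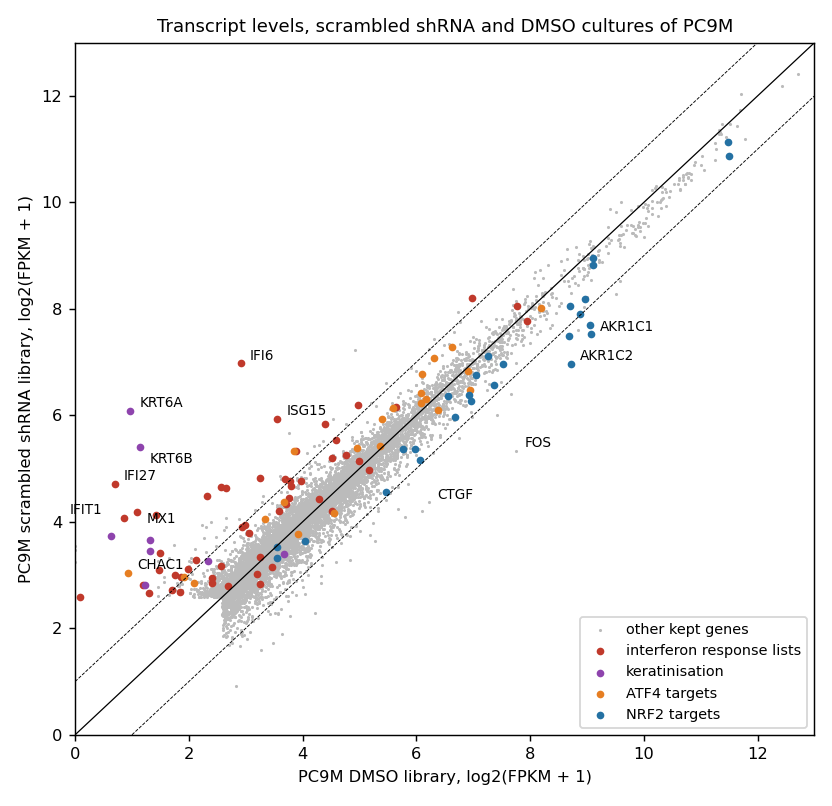
Level of each of the 8691 compared genes in the PC9M DMSO library (horizontal) and the PC9M scrambled library (vertical), both as log2(FPKM + 1), 1 point per gene. The solid line marks equal levels and the dashed lines a 2-fold difference. IFI6, IFI27 and the KRT6 keratins lie far above the upper dashed line, and FOS, CTGF, AKR1C1 and AKR1C2 below the lower one.

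Interferons are secreted proteins that cells release on sensing viral nucleic acid. They bind receptors that activate transcription factors, which join IRF9 in a complex that binds the interferon-stimulated response element (ISRE) of many target genes. These targets encode RNA sensors, antiviral effectors and the parts of the pathway itself, and in epithelial cells many of them are kept at a low level until interferon arrives.

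The ISRE core, GAAA followed by any 2 bases and GAAA again, on either strand, was searched in RefSeq windows of 300 bases, from 250 bases before to 50 bases after each annotated start (GRCh38.p14). Windows of interferon genes that led the higher side are shown, from 250 bases before to 30 bases after the start, 5′ to 3′ on the gene's strand, with the core matches in capitals. OAS1, which had no match, is shown as well. Its window holds gaaacgaaa, which is a base shorter than the core and was not counted. Their positions are chr1:27672163-27672442 (minus strand) for IFI6, chr1:1013247-1013526 (plus) for ISG15, chr10:89392373-89392652 (plus) for IFIT1, chr21:41420308-41420587 (plus, the first of 3 windows) for MX1 and chr12:112906712-112906991 (plus) for OAS1.
IFI6: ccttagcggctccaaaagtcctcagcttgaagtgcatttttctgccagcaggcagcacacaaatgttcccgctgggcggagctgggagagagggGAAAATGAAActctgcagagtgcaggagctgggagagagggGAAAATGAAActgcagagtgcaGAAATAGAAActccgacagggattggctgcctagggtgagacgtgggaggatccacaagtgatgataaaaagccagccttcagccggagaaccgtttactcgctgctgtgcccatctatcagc
ISG15: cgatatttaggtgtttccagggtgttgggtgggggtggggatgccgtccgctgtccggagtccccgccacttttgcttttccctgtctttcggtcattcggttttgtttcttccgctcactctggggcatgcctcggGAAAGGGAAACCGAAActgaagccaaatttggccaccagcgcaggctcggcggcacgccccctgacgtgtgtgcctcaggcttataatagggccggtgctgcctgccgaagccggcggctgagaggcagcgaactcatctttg
IFIT1: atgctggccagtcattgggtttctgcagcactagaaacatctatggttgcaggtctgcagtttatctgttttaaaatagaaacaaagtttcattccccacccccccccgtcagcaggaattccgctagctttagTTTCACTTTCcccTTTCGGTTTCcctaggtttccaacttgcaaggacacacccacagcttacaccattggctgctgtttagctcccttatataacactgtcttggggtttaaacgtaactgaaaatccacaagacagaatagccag
MX1: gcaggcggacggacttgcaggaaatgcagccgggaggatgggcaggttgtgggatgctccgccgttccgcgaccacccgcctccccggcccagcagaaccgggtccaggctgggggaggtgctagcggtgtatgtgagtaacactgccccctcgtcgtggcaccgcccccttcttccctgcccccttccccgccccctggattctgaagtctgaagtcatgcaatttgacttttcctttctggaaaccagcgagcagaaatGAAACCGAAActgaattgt
OAS1: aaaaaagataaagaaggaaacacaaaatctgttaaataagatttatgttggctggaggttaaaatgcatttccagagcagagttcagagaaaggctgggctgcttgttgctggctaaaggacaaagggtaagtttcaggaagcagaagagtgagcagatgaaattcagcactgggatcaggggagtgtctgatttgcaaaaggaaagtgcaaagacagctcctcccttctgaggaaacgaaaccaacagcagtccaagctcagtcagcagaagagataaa

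The IFI6 window held 3 matches, starting at positions -156, -115 and -93 from the start. In ISG15 there were 2 that overlap, at -113 and -107, and in IFIT1 there were 2, at -116 and -103. The MX1 window shown had 1, at position 11 after the start. Of the interferon list genes at least 2-fold higher, 16 of the 21 with a window (76.2%) held a match, against 7 of 21 (33.3%) of the interferon list genes that were compared but not 2-fold higher. These sides differ in the kind of gene. The genes not 2-fold higher include signalling genes without a match, such as IFNAR1, JAK1 and TYK2. IRF9, also a signalling gene without a match, was on the higher side. The contrast was not tested. A match was found in 3.6% of all compared genes with a window and in 4.38% of all 27305 genes. The higher genes outside the interferon lists had one in 3 of 40 (7.5%) and the lower genes in 3 of 48 (6.25%). A match describes these letters and not a bound site. A window without a match, such as that of OAS1, can still hold a like element with other spacing.

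The interferon response genes were listed as RNA sensors, signalling proteins and antiviral effectors, 81 genes in all. The comparison covered 53 of them, and 26 of these (49.1%) were at least 2-fold higher in the scrambled library, beside 0.978% of all genes. None was at least 2-fold lower. They made up 30.6% of the 85 higher genes. Of the 34 compared effectors 12 had entered through the scrambled library alone. Of the 22 effectors with 5 FPKM in both libraries 20 were above 0, 8 of these past 2-fold, and the median was 0.85.

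Among the antiviral effectors, 32 of 34 were above 0 and 18 at least 2-fold higher, with a median ratio of 1.05. IFI6, a protein of mitochondria and endoplasmic reticulum at chromosome 1 from 27865159 to 27871311 (hg18), was listed at 125 FPKM in the scrambled library and at 6.52 FPKM in the DMSO library, a ratio of 4.08 or 16.9-fold. In the other PC9M cultures it stood at 389 FPKM with the ABL1/ABL2 shRNAs and at 5.35 FPKM with GNF5. Both transduced libraries were thus far above both untransduced ones. IFI27, a relative of IFI6, had 25.2 FPKM in the scrambled and 0.616 FPKM in the DMSO library, a ratio of 4.03. The level of IFIT1, which binds viral RNA lacking a host cap, was 15.9 FPKM in the scrambled and 0.805 FPKM in the DMSO library, a ratio of 3.23. MX1, a GTPase that traps viral particles, had 17.3 FPKM in the scrambled and 1.13 FPKM in the DMSO library, a ratio of 3.11. IFI27, IFIT1 and MX1 were thus near 1 FPKM or below with DMSO and above 15 FPKM in the scrambled library. ISG15, a ubiquitin-like modifier, was already expressed with DMSO, at 60.2 FPKM in the scrambled and 10.8 FPKM in the DMSO library (2.39), and the membrane protein IFITM1 stood at 24.2 FPKM scrambled and 4.95 FPKM DMSO (2.09). The 18 effectors not compared were under 5 FPKM in both libraries, and 17 of them were nonetheless listed higher in the scrambled library.

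The sensors make or bind double-stranded RNA signals. OAS1, OAS2 and OAS3 synthesise the oligoadenylates that activate RNase L. OAS1 had 16.6 FPKM in the scrambled and 1.67 FPKM in the DMSO library, a ratio of 2.73. OAS2 had 5.04 FPKM in the scrambled and 0.0644 FPKM in the DMSO library, a ratio of 2.51, and lay only just over the minimum. OAS3 had 24.0 FPKM in the scrambled and 5.28 FPKM in the DMSO library, a ratio of 2.002. The 3 genes lie side by side on chromosome 12. DDX58, which encodes the RNA helicase RIG-I, stood at 8.68 FPKM scrambled and 3.34 FPKM DMSO (1.16), its relative DHX58 at 5.55 FPKM scrambled and 2.24 FPKM DMSO (1.02) and EIF2AK2, the RNA-dependent kinase PKR, at 45.2 FPKM scrambled and 23.1 FPKM DMSO (0.95). All 7 compared sensors were above 0, 5 past 2-fold (beside 0.978% of all genes), and their median was 1.16. Of these 7, 4 had entered through the scrambled library alone, and of the 3 with 5 FPKM in both libraries 1 was past 2-fold, with a median of 0.95.

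The signalling list was mixed. IRF9 had 21.5 FPKM in the scrambled and 3.996 FPKM in the DMSO library, a ratio of 2.18. IRF7, the factor that amplifies interferon production, had 7.51 FPKM scrambled and 1.77 FPKM DMSO (1.63). USP18, which removes ISG15 and dampens the receptor, stood at 0.84, while the adaptor TICAM1 was at 0.45 and the receptor chain IFNAR1 at -0.40. Of the 12 compared genes 8 were above 0 and 3 at least 2-fold higher (beside 0.978% of all genes). Of these 12, 4 had entered through the scrambled library alone, and of the 8 with 5 FPKM in both libraries 1 was past 2-fold. The median was 0.14, or -0.05 over the 8 genes with 5 FPKM in both libraries. IRF9 and IRF7 are themselves known interferon targets.

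Transcripts of the interferons themselves were at or near 0 in both libraries, at a depth that is unknown. None of the 10 genes for interferons and interferon-induced chemokines reached 5 FPKM, and together they summed to 1.87 FPKM in the scrambled and 1.44 FPKM in the DMSO library. IFNB1, for interferon beta, was listed at 0 FPKM in both, the interferon lambda gene IL29 at 0.0393 FPKM in the scrambled and 0 FPKM in the DMSO library, and the chemokine gene CXCL10 at 0.0473 FPKM scrambled and 0.145 FPKM DMSO. These 3 were chosen after their values were seen. Of the 10 genes 7 were listed higher in the scrambled library, and 2 were at 0 FPKM in both. Antigen presentation genes, many of them targets of interferon gamma, showed no common shift. Their median was 0.05 over 15 compared genes, 9 of them above 0. HLA-B was the 1 member at least 2-fold higher, at 44.6 FPKM in the scrambled and 19.5 FPKM in the DMSO library (1.16), though the GNF5 library held 52.4 FPKM. TAP2, a peptide transporter chain, stood at 0.59.

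The other PC9M libraries form a second pair of transduced and untransduced cells that shares no library with the first. It does share the split between separately scaled tables. The ABL1/ABL2 shRNA library stands in the table of the scrambled library, and the GNF5 library in that of the DMSO library. This pair also sets ABL knockdown against GNF5. All 52 listed effectors, those below the minimum included, summed to 1617 FPKM in the scrambled, 3046 FPKM in the ABL1/ABL2 shRNA, 930 FPKM in the GNF5 and 915 FPKM in the DMSO library. Over GNF5, the ABL1/ABL2 shRNA library had a median effector ratio of 1.71, with 23 of 34 at least 2-fold higher, beside 3.79% of all compared genes. ISG15 had 228 FPKM with the ABL1/ABL2 shRNAs and 9.42 FPKM with GNF5, and MX1 had 60.8 FPKM with the ABL1/ABL2 shRNAs and 1.48 FPKM with GNF5. For the sensors the median in that pair was 2.24. The ABL1/ABL2 shRNA library thus held the highest effector sum of the 4.

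In PC9 many of these genes were too low to be compared. Of the 34 effectors 13 had 5 FPKM in either the scrambled or the DMSO library of PC9, a minimum added after the data were seen, and their median was 0.04, with 0 higher by 2-fold and 1 lower, beside 6.92% of all genes that far up and 7.05% that far down in that pair. Over all 34 the median was -0.05, but the pseudocount of 1 FPKM holds genes below that level near 0. MX1 was listed at 0.149 FPKM in the scrambled and 0.160 FPKM in the DMSO library of PC9, and IFI27 at 0 FPKM in both. ISG15 was well expressed in PC9 without a like difference, at 84.2 FPKM in the scrambled and 50.4 FPKM in the DMSO library (0.49). IFI6 stood at 1.72 FPKM scrambled and 0.228 FPKM DMSO (0.91), and OAS3 at 1.30 FPKM scrambled and 0.321 FPKM DMSO (0.56). With a pseudocount of 0.1 FPKM, 7 of the 26 interferon list genes higher in PC9M were also at least 2-fold higher in PC9, IFI6 and OAS3 among them, all at 2.10 FPKM or less there, and 2 were at least 2-fold lower. The share of all compared genes that far apart in PC9 at this pseudocount was not worked out, so these counts have no background. The difference between the lines was not tested.

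**Figure D2:**
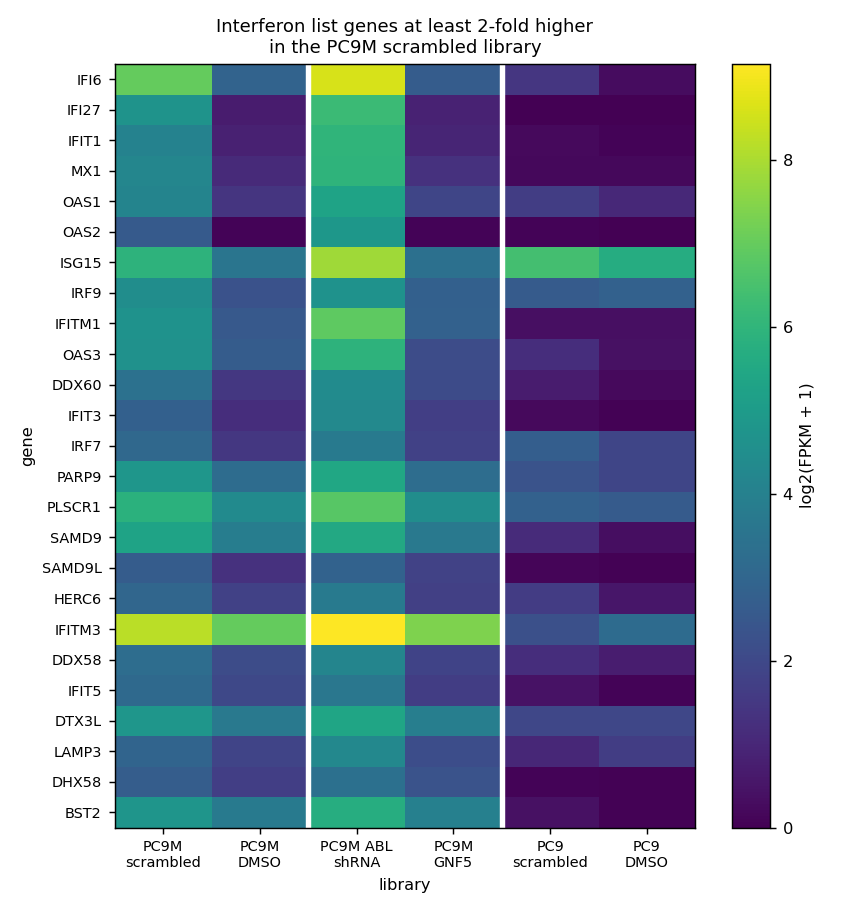
Levels, as log2(FPKM + 1) on the colour scale, of 25 of the 26 interferon list genes at least 2-fold higher in the PC9M scrambled library (rows, by falling ratio) in 6 libraries (columns, white lines between pairs). Within PC9M both transduced columns are brighter than their untransduced neighbours, and in PC9 most rows are dark in both columns, ISG15 excepted.

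The stress keratins KRT6A and KRT6B held the highest ratios of all compared genes. KRT6A, KRT6B and KRT6C encode near-identical keratins of wounded and hyperproliferative epithelia, and SPRR genes encode small proline-rich proteins that are cross-linked into the cornified envelope of squamous cells. Reads of such copies can be shared out among them, so their separate values are uncertain. KRT6A, at chromosome 12 from 51167225 to 51173448 (hg18), had 67.1 FPKM in the scrambled and 0.956 FPKM in the DMSO library, a ratio of 5.13 or 35.01-fold. KRT6B had 41.4 FPKM scrambled and 1.22 FPKM DMSO (4.26), and KRT6C had 12.3 FPKM scrambled and 0.551 FPKM DMSO (3.11). The neighbours SPRR1A and SPRR1B on chromosome 1 stood at 2.34 and 2.15, and SPRR3 at 1.59. All 6 were under 2 FPKM with DMSO.

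Of the 24 keratinisation genes 8 were compared, 7 of them through the scrambled library alone, and 6 were at least 2-fold higher (beside 0.978% of all genes). The median of 2.25 rests on that selection. The 1 gene with 5 FPKM in both libraries stood at -0.27. Of the 16 genes below the minimum 14 were also listed higher in the scrambled library, and the list summed to 178 FPKM there and 28.1 FPKM in the DMSO library. The ABL1/ABL2 shRNA library was closer to the untransduced ones here, with a sum of 65.7 FPKM against 41.0 FPKM with GNF5. KRT6A had 18.7 FPKM with the ABL1/ABL2 shRNAs and 1.70 FPKM with GNF5. SPRR1A ran the other way, at 3.20 FPKM with the ABL1/ABL2 shRNAs and 10.4 FPKM with GNF5. In PC9 the stress keratins differed as in PC9M: KRT6A had 112 FPKM in the scrambled and 3.84 FPKM in the DMSO library (4.30), KRT6B had 273 FPKM scrambled and 12.8 FPKM DMSO (4.08), and the same 6 genes were at least 2-fold higher.

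Secreted defence proteins of mucosal surfaces lay on the same side. Of 11 compared genes of complement and mucosal defence 10 were above 0 and 5 at least 2-fold higher (beside 0.978% of all genes), with a median of 0.86. Over the 9 with 5 FPKM in both libraries 3 were past 2-fold and the median was 0.72. PI3, the elastase inhibitor elafin, had 149 FPKM in the scrambled and 29.2 FPKM in the DMSO library, a ratio of 2.32. Its neighbour on chromosome 20, SLPI, another protease inhibitor, had 243 FPKM scrambled and 105 FPKM DMSO (1.22). S100A8, a subunit of calprotectin, had 10.8 FPKM scrambled and 2.33 FPKM DMSO (1.83), CFB, complement factor B, had 15.02 FPKM scrambled and 4.22 FPKM DMSO (1.63) and LCN2, which binds bacterial siderophores, had 152 FPKM scrambled and 74.1 FPKM DMSO (1.03). PI3 also had more in the ABL1/ABL2 shRNA library, at 60.0 FPKM, than in the GNF5 library, at 43.7 FPKM. The others of the 5 did not. LCN2, for example, had 53.2 FPKM with the ABL1/ABL2 shRNAs and 204 FPKM with GNF5, and the list's median in that pair was -1.48. In PC9 it was -1.28. PI3 alone of the 5 was also at least 2-fold higher in PC9, at 108 FPKM in the scrambled and 42.1 FPKM in the DMSO library.

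TNFAIP3, a feedback inhibitor of NF-kB, stood apart from its list. It had 8.61 FPKM in the scrambled and 1.74 FPKM in the DMSO library (1.82), and in PC9 19.2 FPKM scrambled and 1.72 FPKM DMSO (2.66). The other pair of PC9M ran the opposite way, at 3.30 FPKM with the ABL1/ABL2 shRNAs and 6.17 FPKM with GNF5 (-0.83). In that pair of PC9 TNFAIP3 stood at -0.22. The other 13 compared NF-kB and inflammatory genes lay within 2-fold, and the list's median was 0.13. BIRC3, an inhibitor of apoptosis, stood at 0.55, and the chemokine genes CXCL2 and IL8 at -0.52 and -0.33.

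A further group on the higher side belongs to amino acid supply. ATF4 is the transcription factor that cells translate when amino acids run short or proteins misfold, and its targets make or import amino acids. Of 22 compared ATF4 targets 16 were above 0 and 3 at least 2-fold higher (beside 0.978% of all genes), with a median of 0.48. Over the 19 with 5 FPKM in both libraries 1 was past 2-fold and the median was 0.34. CHAC1, which degrades glutathione, had 7.23 FPKM in the scrambled and 0.906 FPKM in the DMSO library (2.12). ASNS, asparagine synthetase, had 39.4 FPKM scrambled and 13.5 FPKM DMSO (1.49), and SESN2, a leucine sensor, 6.80 FPKM scrambled and 2.76 FPKM DMSO (1.06). The amino acid transporter SLC7A5 stood at 0.77 and the stress factor DDIT3 at 0.76. Smaller shifts ran through related lists. Of 12 cytosolic tRNA synthetases 11 were above 0, with a median of 0.21, led by GARS at 0.58 and WARS at 0.50, and of 20 chaperones and stress genes of the endoplasmic reticulum 19 were, also with a median of 0.21, led by XBP1 at 0.93.

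The ATF4 list summed to 2100 FPKM in the GNF5 library of PC9M, above 1508 FPKM in the scrambled and 1308 FPKM in the DMSO library. Not every member was higher there. SLC7A5 had 71.3 FPKM with GNF5, 134 FPKM scrambled and 78.2 FPKM DMSO. ASNS had 22.8 FPKM with the ABL1/ABL2 shRNAs and 83.8 FPKM with GNF5, and CHAC1 had 1.33 FPKM with the ABL1/ABL2 shRNAs and 9.41 FPKM with GNF5. In PC9 the order was opposite to PC9M: the ATF4 list had a median of -1.69, with 19 of 22 genes at least 2-fold lower in the scrambled library (beside 7.05% of all genes). CHAC1 had 8.07 FPKM in the PC9 scrambled and 41.2 FPKM in the PC9 DMSO library.

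Laminins and integrins, which anchor epithelial cells to the basement membrane, were above 0 for 14 of 16 compared genes, with a median of 0.39. The laminin chain gene LAMA3, at 14.05 FPKM in the scrambled and 3.95 FPKM in the DMSO library (1.61), was at least 2-fold higher, and LAMB3, another chain, stood at 0.74. EGFR, a receptor tyrosine kinase that drives many lung adenocarcinomas, had 140 FPKM scrambled and 86.2 FPKM DMSO (0.70). Its ligand gene AREG had 10.7 FPKM scrambled and 4.54 FPKM DMSO (1.09), while ERRFI1, a feedback inhibitor of EGFR, was at -0.74 and ERBB3 at -0.69. LAMA3 and AREG entered through the scrambled library alone. In PC9M ABL1/ABL2 shRNA over GNF5, PC9 scrambled over DMSO and PC9 ABL1/ABL2 shRNA over GNF5, AREG stood at -0.97, -0.59 and -0.91. The list medians, in the same order, were -0.73, -0.61 and -0.07 for EGFR and its ligands. For laminins and integrins they were -0.07, -0.02 and 0.41.

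**Figure D3:**
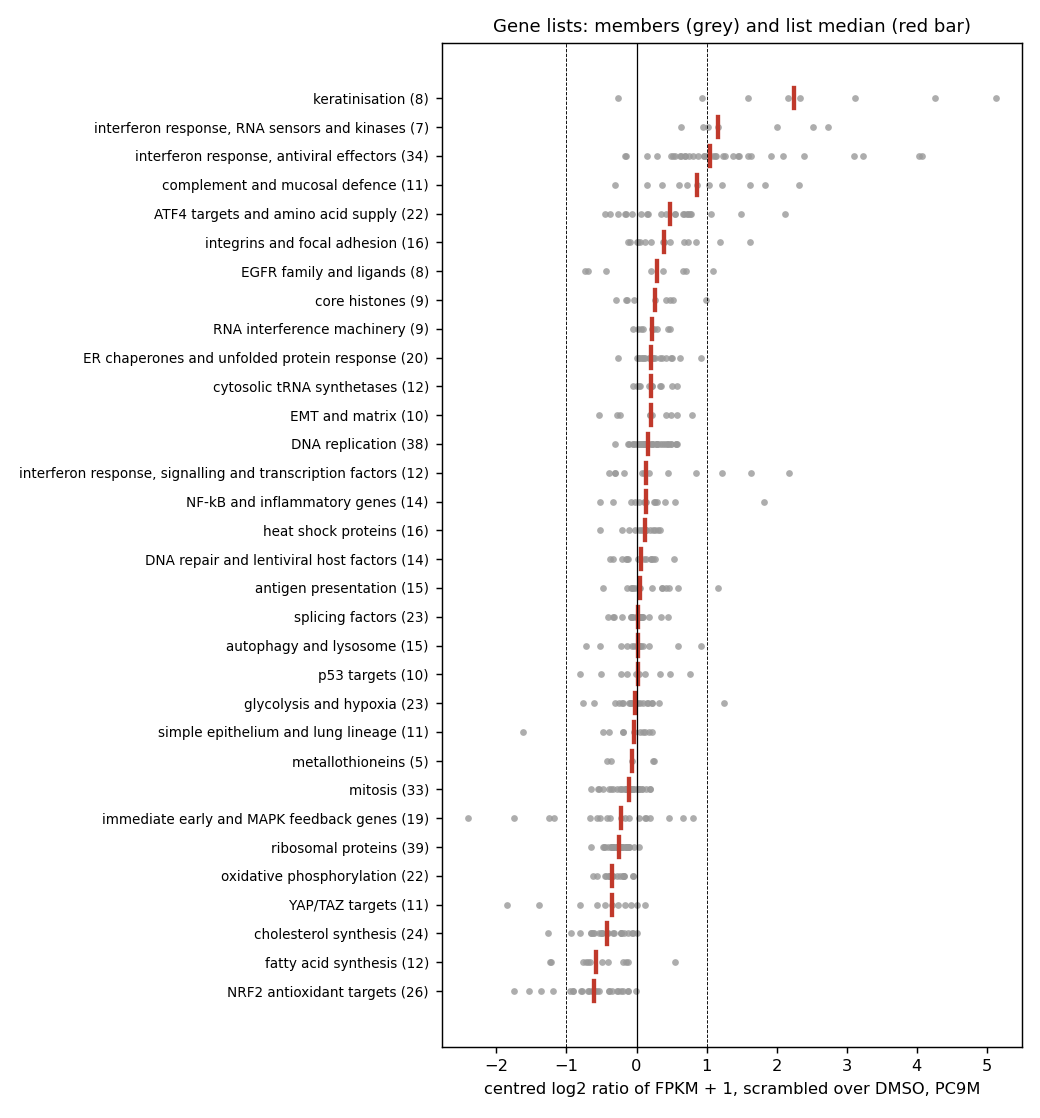
Centred log2 ratio of scrambled over DMSO in PC9M for each compared member (grey points) of the 32 gene lists with at least 5 compared members, with the list median as a red bar and the number of members in parentheses. Dashed lines mark 2-fold. Keratinisation and the interferon sensors and effectors have medians above 1, NRF2 targets the lowest at -0.60. The 3 medians above 1 include members that entered through the scrambled library alone. Over members with 5 FPKM in both libraries they were 0.95 for sensors and 0.85 for effectors. Keratinisation had 1 such member, at -0.27.

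A uniform group on the lower side were the targets of NRF2, the factor that induces detoxifying and antioxidant enzymes when electrophiles inactivate its inhibitor KEAP1. All 26 listed genes had 5 FPKM in both libraries, and 26 of 26 had a ratio below 0, with a median of -0.60. At least 2-fold lower were 4, beside 0.713% of all genes. The list summed to 7474 FPKM in the scrambled and 11446 FPKM in the DMSO library. The 4 were aldo-keto reductases, which reduce aldehydes and steroids and of which AKR1C1, AKR1C2 and AKR1C3 are near-identical neighbours on chromosome 10, so that their separate values are uncertain.

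AKR1C2, at chromosome 10 from 5019968 to 5050225 (hg18), had 124 FPKM in the scrambled and 420 FPKM in the DMSO library, a ratio of -1.74. AKR1C1 had 183 FPKM scrambled and 536 FPKM DMSO (-1.54), AKR1C3 had 205 FPKM scrambled and 531 FPKM DMSO (-1.36) and AKR1B10 had 178 FPKM scrambled and 410 FPKM DMSO (-1.19). These are abundant transcripts of the line, and they were still abundant in the scrambled library. NQO1, a quinone reductase, had 240 FPKM scrambled and 468 FPKM DMSO (-0.95), and the cystine transporter SLC7A11 had 22.6 FPKM scrambled and 43.4 FPKM DMSO (-0.90). Over GNF5, the ABL1/ABL2 shRNA library had a median of -0.41 for the list, and AKR1C1 stood at 144 FPKM with the ABL1/ABL2 shRNAs and 412 FPKM with GNF5. In PC9 the median was -0.60, with 21 of 26 genes not above 0 and 6 at least 2-fold lower (beside 7.05% of all genes). There AKR1C1 had 170 FPKM in the scrambled and 454 FPKM in the DMSO library. In a separate enzyme family, the aldehyde dehydrogenases ALDH3A1, at 17.96 FPKM scrambled and 50.1 FPKM DMSO (-1.42), and ALDH1A1, at 2.008 FPKM scrambled and 8.62 FPKM DMSO (-1.67), were also lower.

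Immediate early genes, which respond within minutes to growth factors and handling, contained the gene with the lowest ratio among the protein-coding genes. FOS, at chromosome 14 from 74815234 to 74818690 (hg18), had 39.3 FPKM in the scrambled and 213 FPKM in the DMSO library, a ratio of -2.40. Its level was 41.5 FPKM with the ABL1/ABL2 shRNAs and 178 FPKM with GNF5, and in PC9 it was 80.5 FPKM in the scrambled and 368 FPKM in the DMSO library. In each of these pairs the transduced library was the lower, but not in the remaining PC9 pair, with 91.0 FPKM for the ABL1/ABL2 shRNAs and 55.4 FPKM for GNF5. FOSB had 2.71 FPKM scrambled and 11.5 FPKM DMSO (-1.74), the transcription factor EGR1 84.0 FPKM scrambled and 202 FPKM DMSO (-1.25) and the MAP kinase phosphatase DUSP1 46.6 FPKM scrambled and 107 FPKM DMSO (-1.17). The list as a whole was less uniform, with 4 of 19 genes at least 2-fold lower (beside 0.713% of all genes), 7 above 0 and a median of -0.22. FOSB had entered through the DMSO library alone, so it had to be on the lower side. Of the 17 genes with 5 FPKM in both libraries 3 were at least 2-fold lower (beside 0.5% of such genes), with a median of -0.22. PHLDA1 stood at 0.81 and the AP-1 subunit FOSL1 at 0.67.

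Targets of YAP and TAZ, coactivators that respond to cell density and matrix stiffness, included CTGF, at 19.6 FPKM in the scrambled and 73.2 FPKM in the DMSO library (-1.84), and CYR61, at 63.6 FPKM scrambled and 169 FPKM DMSO (-1.39). Both encode secreted matricellular proteins. ANKRD1 stood at -0.80, and of the 11 genes 9 were below 0, with a median of -0.36. CYR61 had 91.0 FPKM with the ABL1/ABL2 shRNAs and 109 FPKM with GNF5. In PC9 CYR61 was on the other side, at 46.7 FPKM in the scrambled and 24.0 FPKM in the DMSO library (0.69), and CTGF was near 0 FPKM in both.

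Lipid synthesis genes, most of them under the SREBP factors that sense membrane sterols, were lower by smaller steps. Of 12 fatty acid genes 11 were below 0 and 2 at least 2-fold lower (beside 0.713% of all genes), with a median of -0.58. FADS2 had entered through the DMSO library alone. Of the 11 with 5 FPKM in both libraries 1 was at least 2-fold lower, with a median of -0.49. The desaturase SCD had 194 FPKM in the scrambled and 459 FPKM in the DMSO library (-1.23), FADS2 had 3.86 FPKM scrambled and 10.4 FPKM DMSO (-1.22) and the synthase FASN had 87.7 FPKM scrambled and 150 FPKM DMSO (-0.76). Of 24 cholesterol genes 23 were below 0, with a median of -0.43, and 1 was at least 2-fold lower (beside 0.713% of all genes). The sterol sensor INSIG1 had 22.4 FPKM scrambled and 40.1 FPKM DMSO (-0.81). In PC9 the cholesterol list had a median of 0.40, with 7 genes at least 2-fold higher (beside 6.92% of all genes). Oxidative phosphorylation genes were below 0 for 22 of 22, with a median of -0.35, and listed ribosomal protein genes for 38 of 39, with a median of -0.25, none of either list by 2-fold. Across the settings recomputed, the median of the listed ribosomal protein genes ranged from -0.25 to -0.06. RPL13A and RPL21, ribosomal protein genes outside that list, were named because they were at least 2-fold lower. The other unlisted ribosomal protein genes were not counted. RPL13A had 366 FPKM scrambled and 768 FPKM DMSO (-1.06), and RPL21 had 309 FPKM scrambled and 731 FPKM DMSO (-1.23). In the ABL1/ABL2 shRNA over GNF5 pair of PC9M the medians were -0.02 for fatty acid, 0.18 for cholesterol, 0.03 for oxidative phosphorylation and -0.26 for ribosomal protein genes.

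Several of the lowest genes belonged to none of these lists. TGFBR1, the type I receptor of TGF-beta, had 17.4 FPKM in the scrambled and 67.3 FPKM in the DMSO library (-1.88), but 56.3 FPKM with the ABL1/ABL2 shRNAs and 41.4 FPKM with GNF5, so that the scrambled library alone was low. WNT6, a secreted Wnt ligand, had 0.898 FPKM scrambled and 6.08 FPKM DMSO (-1.89), and in PC9 3.20 FPKM scrambled and 48.1 FPKM DMSO. The secretory disulfide isomerase AGR2 had 11.4 FPKM scrambled and 37.5 FPKM DMSO (-1.63), the chloride channel family member CLIC3 2.30 FPKM scrambled and 10.1 FPKM DMSO (-1.75), the iron reductase CYBRD1 8.80 FPKM scrambled and 27.6 FPKM DMSO (-1.54) and endothelin gene EDN1 6.19 FPKM scrambled and 19.0 FPKM DMSO (-1.47). The uncharacterised C4orf34 stood at -1.69 and YPEL3, a gene linked to growth arrest, at -1.54.

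**Figure D4:**
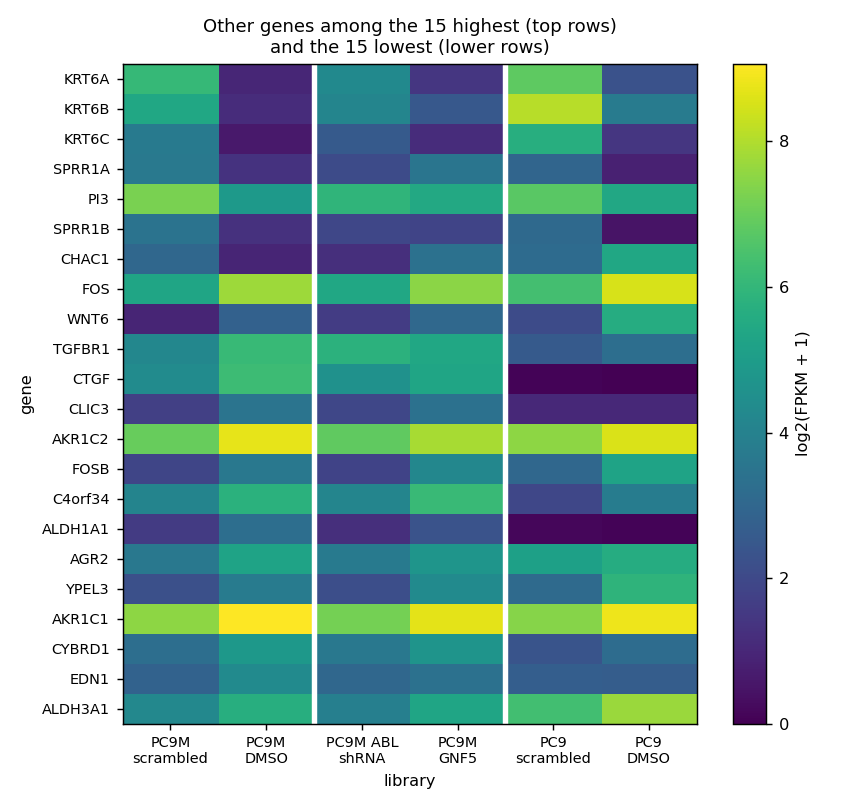
Levels, as log2(FPKM + 1) on the colour scale, of the genes outside the interferon lists among the 15 highest (first 7 rows, KRT6A to CHAC1) and the 15 lowest (rows from FOS to ALDH3A1) protein-coding genes, in 6 libraries with white lines between pairs. The KRT6 rows are brightest in both scrambled columns, AKR1C1 and AKR1C2 are brighter in each untransduced column than in its transduced neighbour, and TGFBR1 is darker in the PC9M scrambled column than in the other PC9M columns.

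Cell cycle genes lay within 2-fold between the scrambled and DMSO libraries of PC9M. DNA replication genes had a median of 0.17, 32 of 38 being above 0, and mitosis genes one of -0.11, with 10 of 33 above 0, none of them by 2-fold. Between the ABL1/ABL2 shRNA and GNF5 libraries of PC9M the medians were 1.27 for replication and 0.83 for mitosis, with 29 and 9 genes at least 2-fold higher (beside 3.79% of all genes). Between the PC9 scrambled and DMSO libraries they were 2.11 and 1.68. These differences between pairs were not tested. RNA interference genes, the machinery that an shRNA enters, were above 0 for 8 of 9, with a median of 0.21, led by the argonaute gene EIF2C2 at 0.48 and XPO5 at 0.45. The remaining lists had medians between -0.07 for metallothioneins and 0.29 for EGFR and its ligands: core histones 0.26, EMT and matrix 0.21, heat shock proteins 0.13, DNA repair and lentiviral host factors 0.06, p53 targets, autophagy genes and splicing factors 0.02 each, glycolysis -0.02 and epithelial genes -0.04. In glycolysis HK2, a hexokinase, was the 1 gene at least 2-fold apart, at 12.1 FPKM in the scrambled and 4.56 FPKM in the DMSO library (1.25).

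The genes called in PC9M were also read in the pairs that share no library with that comparison. Each of these pairs also sets a transduced library against an untransduced library of a different, separately scaled table. Of the 85 higher genes 43 (50.6%) were at least 2-fold higher in the ABL1/ABL2 shRNA over the GNF5 library of PC9M, 13.1% of the 329 genes higher there, and 9 were at least 2-fold lower. Between the PC9 scrambled and DMSO libraries 20 of the 85 (23.5%) were at least 2-fold higher, 3.33% of the 601 there, and 8 were at least 2-fold lower. The background in those pairs was 3.79% and 6.92%. Of the 62 lower genes 30 (48.4%) were at least 2-fold lower in the ABL1/ABL2 shRNA over GNF5 pair, 9.09% of the 330 there (background 3.8%), and 28 (45.2%) in PC9 scrambled over DMSO, 4.57% of the 613 there (background 7.05%). Between the ABL1/ABL2 shRNA and GNF5 libraries of PC9, 12 of the 85 were higher (14.1%, background 10.3%) and 13 were at least 2-fold lower, and of the 62 there were 20 lower (32.3%, background 11%) and 5 at least 2-fold higher.

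Those higher in both lines, scrambled over DMSO, were KRT6A, KRT6B, KRT6C, SPRR1A, SPRR1B, SPRR3, PI3 and TNFAIP3 among those described. None of the 26 interferon list genes was, of which 6 had 5 FPKM in either PC9 library. At a pseudocount of 0.1 FPKM 7 were, with no background worked out for that setting. Those lower in both included FOS, FOSB, WNT6, AKR1C1, AKR1C2, ALDH3A1, YPEL3, C4orf34 and CYBRD1. Of the 62 lower genes 59 were below 0 in PC9, with a median of -0.95. Of the 85 higher genes 53 were above 0, with a median of 0.22. The sign carries no information for genes hardly expressed in PC9. Centring placed IFI27 and NR0B1, at 0 FPKM in both PC9 libraries, at -0.24. CTGF stood at -0.17 in PC9 though it was listed at 0.0559 FPKM in the scrambled and 0.00656 FPKM in the DMSO library. Such genes raise the first count and lower the second. Going opposite ways by 2-fold were CHAC1, ASNS, SESN2, CFB and LCN2 of the genes described, and the interferon-induced IFITM3, at 295 FPKM in the scrambled and 126 FPKM in the DMSO library of PC9M (1.23) but at -1.21 in PC9.

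**Figure D5:**
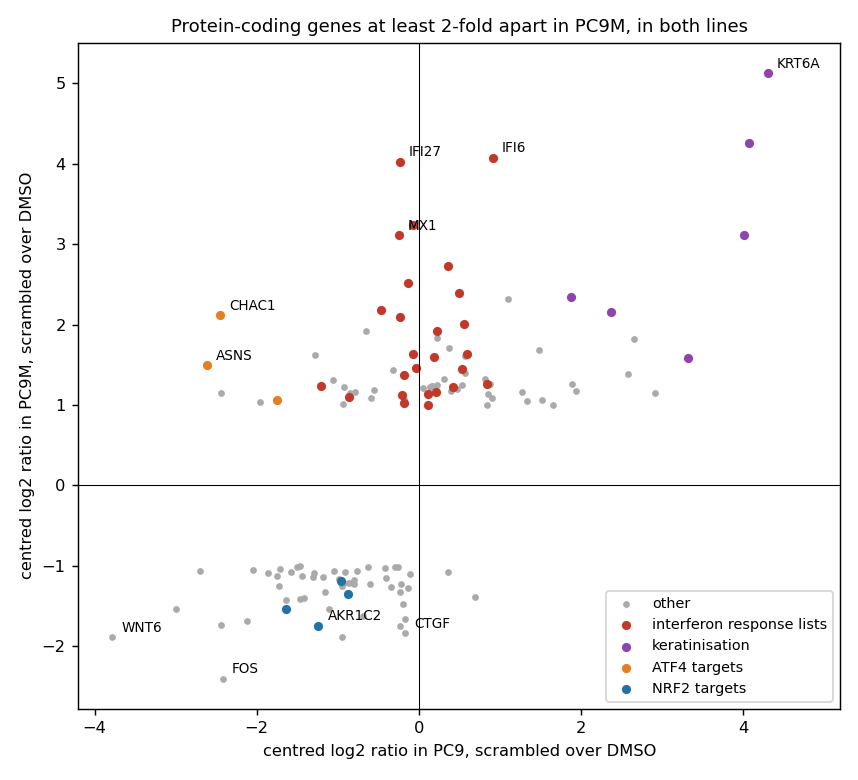
Centred log2 ratio of scrambled over DMSO in PC9 (horizontal) and PC9M (vertical) for the genes that code for protein and differed 2-fold or more in PC9M, 1 point per gene. Interferon list genes lie high and between -1.21 (IFITM3) and 0.91 (IFI6) on the PC9 axis, where those under 1 FPKM in PC9 are held near 0 by the pseudocount. Centring places genes at 0 FPKM in both PC9 libraries, such as IFI27 and NR0B1, at -0.24 on that axis. The keratins lie high in both lines, CHAC1 and ASNS are on opposite sides of 0, and nearly all lower genes, FOS and the aldo-keto reductases among them, are below 0 in both.

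Some of the higher genes are neighbours on the chromosome, which was not counted over all compared genes. On hg18, 22 of the 85 lay within 100 kb of another of them: the OAS genes and the KRT6 genes, each in a cluster on chromosome 12, IFIT1, IFIT3 and IFIT5 on chromosome 10, the SPRR genes on chromosome 1, and pairs such as PI3 with SLPI on chromosome 20 and IFITM1 with IFITM3 on chromosome 11. Of the 62 lower genes 6 did, mainly the AKR1C cluster. IFIT3, IFIT5 and IFITM3 were named for their place and not by their rank.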

How the data were processed

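The deposited tables hold FPKM per gene for 2 libraries each, computed by the authors with TopHat and Cuffdiff on hg18, per the submitters' processing notes. Versions and annotation are not given in the sources used here. Each table was scaled separately, so ratios across tables were centred on their median. The tables of PC9 and PC9M were used, 4 in all. RNA was extracted with a Qiagen RNeasy kit, per the labels' protocols. Starts of loci count from 0 in the tables and are given here counting from 1. EEF1A1 has no estimate in a PC9 library and was left out there.

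Genes joined by symbol were kept at 5 FPKM or more in either library, and the log2 ratio used a pseudocount of 1 FPKM. Differences of 2-fold or more were counted with no test, since there is 1 library per group. Entries for MIR, SNORD and SNORA genes (237 with 5 FPKM) and 28 date-like symbols per table were left out. Of the 8691 kept genes, 71 carry a failed or low-data status in the authors' tables, KRT8 and KRT18 among them, and 0 of the genes at least 2-fold apart do. FPKM give no counting intervals.

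The 36 gene lists, the members and the minimum were chosen with earlier results of these data known. Named were ABL1, ABL2, IFI6 and MX1, the 15 highest and 15 lowest protein-coding genes at least 2-fold apart, and up to 6 members of each list with the largest ratio in size. Genes that mark cell types, and those singled out by place or by line, were named beyond that rule. A few genes that the rule takes are not reported here. Promoter windows came from RefSeq (GRCh38.p14), and 7077 of the kept genes had one. Code was checked on simulated data. Python 3.11.15, numpy 2.4.6, pandas 2.3.3, scipy 1.17.1, statsmodels 0.14.6 and matplotlib 3.10.9 were used.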

Additional observations from a re-analysis of the deposited data

Results flagged for a closer look

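Some groups had ratios of scrambled over DMSO that lay on opposite sides of 0 in PC9M and PC9. With 1 library per culture the difference between the lines was not tested. ATF4 targets had a median of 0.48 in PC9M and of -1.69 in PC9. CHAC1, the member that led that list in PC9M, stood at 2.12 in PC9M and at -2.45 in PC9. Complement and mucosal defence genes had a median of 0.86 in PC9M and of -1.28 in PC9. For cholesterol synthesis the median was -0.43 in PC9M and 0.40 in PC9.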

How the results depend on the processing

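No paired analysis was possible because each group has 1 library and the labels give no replicate numbers. Among the list medians and named genes recomputed, none that was 1.5-fold or more in size changed sign; not every gene or list (keratinisation, for one) had a value at the stricter minimums. Smaller medians did turn: epithelial genes, glycolysis and metallothioneins under other centrings, EGFR and its ligands from 0.29 to -0.11 and interferon signalling from 0.14 to -0.05 with the minimum in both libraries, EMT and matrix from 0.21 to -0.03 at a minimum of 10 FPKM, and p53 targets from 0.02 to -0.13 and DNA repair from 0.06 to -0.12 at 1 FPKM. At a pseudocount of 0.1 FPKM, 102 genes were higher and 96 lower; at 5 FPKM, 42 and 27. A minimum of 10 FPKM gave 54 higher. With short RNAs kept there were 154 higher and 126 lower. A minimum of 5 FPKM in both libraries, chosen after seeing the data, gave 34 higher and 40 lower. The median of keratinisation was 1.29 at a pseudocount of 5 FPKM, and 1.63, 3.11 and 0.39 at a minimum of 1 FPKM, of 10 FPKM and with no minimum. Centred on FPKM sums, 70.8% of the genes apart were higher, against 57.8%. Genes called in PC9M that were also called in the same direction in another pair numbered as follows. In PC9 scrambled over DMSO, 36 higher and 55 lower (pseudocount 0.1), 11 and 8 (pseudocount 5), 32 higher (short RNAs), 18 lower (FPKM sums), and 8 and 18 (minimum in both). In PC9M ABL1/ABL2 shRNA over GNF5, 20 and 12 (pseudocount 5), 28 higher (minimum 10), 65 and 49 (short RNAs), and 16 and 17 (minimum in both). In PC9 ABL1/ABL2 shRNA over GNF5, 29 and 33 (pseudocount 0.1), 5 and 7 (pseudocount 5), 20 higher (no minimum), 22 higher and 9 lower (FPKM sums), 46 lower (short RNAs), and 7 and 12 (minimum in both). The causes were not tested. Low FPKM rest on few reads of unknown number, which limits the ratios of genes near the minimum.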

Other observations

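Promoter letters were also searched for 3 other motifs on both strands of the same windows, as descriptions, with overlaps between motifs not counted. TGATGNAA, a C/EBP-ATF composite, occurred in 6 of 20 ATF4 targets with a window (30%), against 2.5% of the compared genes. The antioxidant element TGACNNNGC occurred in 6 of 19 NRF2 targets (31.6%), against 19.9%, and in 9 of 20 ATF4 targets (45%). A sterol element occurred in 1 of 17 cholesterol genes, against 0.0283% of the compared genes.

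The small RNAs SCARNA23, SCARNA27 and SNAR-F were listed at 0 FPKM in the DMSO library, so no fold is given for them. The entry with the highest value in both libraries was MIR4461, a short RNA left out of the comparison, which made up 11.99% of the FPKM sum of the scrambled library and 16.7% of that of the DMSO library.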
